A study of Mus musculus with 6 samples.

Results

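The genes described here encode 10 ligands and receptors of the IL-6 and IL-1 cytokine families, Il6, Lif, Il11, Il6st, Osmr, Il33, Il18, Il1rn, Il1r1 and Il1rl1, chosen by name from the 16894 genes with a value in the study's table. All 10 had a line there, at least 48 reads in every library, and passed the filter on low values in every library. They were measured by bulk RNA-seq in fibroadipogenic progenitors (FAPs), mesenchymal cells of skeletal muscle that can become fibroblasts or adipocytes, in 3 control (non-senescent) and 3 senescent cultures. Both groups came from C57BL/6 mice. The animals were male and female and 3 to 6 months old, and the cells were sorted by magnetic beads as CD45-, CD31-, α7-integrin- and SCA-1+ and grown in serum with bFGF under low oxygen. The senescent FAPs had received 20 μM of etoposide, a topoisomerase poison that breaks DNA, for 48 h and then 5 days in normal medium, so treated cells had also spent this time in culture, and how long control cells were kept was not given in the sources used here. The labels do not say whether the replicates came from separate animals, so p values measure the spread between these libraries only.

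Cytokines of the IL-6 family bind a receptor of their own and then signal through the shared subunit gp130, the product of Il6st, which activates JAK kinases and STAT3. The IL-1 family works through receptors that pair with an accessory chain and recruit MyD88 and IRAK kinases to activate NF-κB. IL-6 and IL-1 are textbook members of the senescence-associated secretory phenotype (SASP), and in injured muscle FAPs are a known source of both IL-6 and IL-33.

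Genes received 41412179 to 59912520 reads per library. The cyclin-dependent kinase inhibitor Cdkn1a rose from a mean of 290 ± 40.5 CPM in control to 1038 ± 21.4 CPM in senescent cultures (SD, n = 3 each), and the proliferation marker Mki67 fell from 158 ± 78.6 to 12.7 ± 5.49 CPM. CPM here are counts relative to the library size after edgeR's scaling. Control replicate 2 stood apart from the other control cultures, with Mki67 at 247 CPM against 125 and 100.54 CPM. The FAP markers Pdgfra (192 ± 58.4 CPM in control and 218 ± 35.7 CPM in senescent) and Ly6a, which encodes SCA-1 (372 ± 132 and 625 ± 76.0 CPM), were present in both groups. The 8 FAP markers summed to 16955 to 35595 CPM in control and 9930 to 14254 CPM in senescent FAPs. Within this sum Col1a1 fell from 15545 ± 5576 to 3116 ± 876 CPM. By limma 4 of the 8 were higher, 1 lower and 3 not called at an adjusted p under 0.05. Over all genes tested, 21.8% were higher and 24.3% lower. Lum, 1 of the 4, needed its senescent libraries to pass the filter. Of 13 leukocyte markers, 8 were listed, and their summed level was 13.7 to 16.2 CPM in control and 30.4 to 36.9 CPM in senescent FAPs, with Cd53 the highest at 11.4 CPM. Ptprc, Adgre1, Tyrobp, Cd3e and Cd79a were not analysed here. The 5 listed of 8 endothelial markers summed to 19.2 to 39.5 CPM in control and 23.8 to 31.2 CPM in senescent FAPs, led by Tek, and the 3 listed of 8 myogenic markers to 35.1 to 54.0 and 35.3 to 38.2 CPM, led by Itga7. The part of such cells in the results was not tested.

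Senescent compared to control FAPs had more mRNA of the alarmin IL-33 and of its receptor ST2 (Il1rl1), and less of the IL-1 receptor antagonist (Il1rn) and of the signaling IL-1 receptor (Il1r1). The ratio of group means was 11.9 for Il33 and 1.64 for Il1rl1, while control exceeded senescent FAPs 2.30-fold for Il1rn and 2.04-fold for Il1r1. Il33, Il1rl1 and Il1rn were called in all 16 alternative fits, while Il1r1 lost its call in 5 of them and its groups overlapped. The 3 ligands and 2 receptor chains of the IL-6 family, and Il18, did not pass the test, although with the replicate number as a block Il6 and Il6st were called lower, which takes the lower members from 2 to 4. By limma on log2(CPM + 0.5), two-sided and with Benjamini-Hochberg adjustment over 14776 genes, 2 of the 10 were higher and 2 lower at an adjusted p under 0.05. Over all genes tested, 21.8% were higher and 24.3% lower, so the members' share of calls is near that background in each direction. In 4 of the 10 genes the groups did not overlap, against 57.4% of all genes tested. A lower level in bulk RNA cannot tell fewer cells of a type from less RNA per cell.

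**Figure D1:**
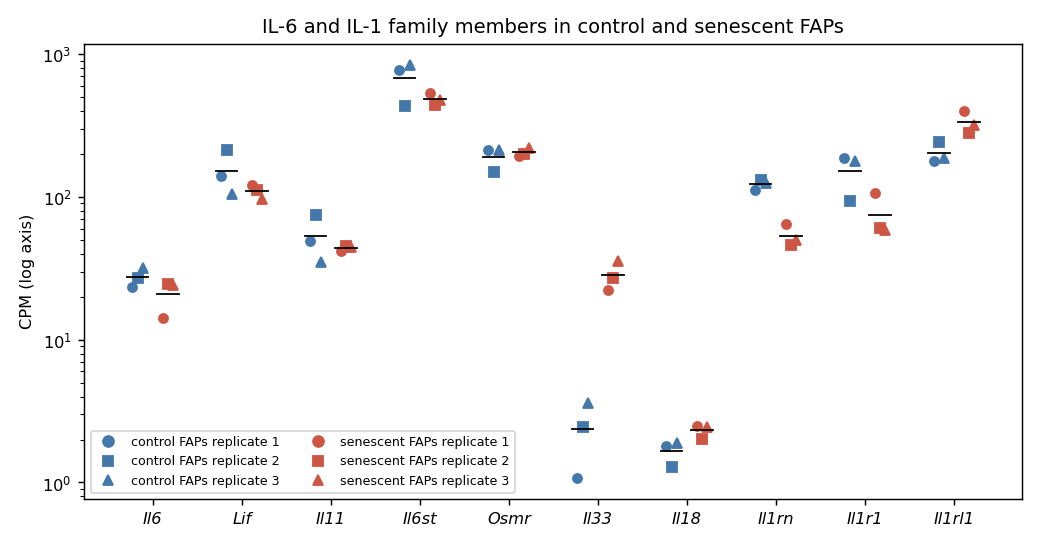
CPM (log axis) of the 10 genes in each library. Blue points are control and red points senescent FAPs, the circle, square and triangle are replicates 1, 2 and 3, and the black line is the group mean. Il33 lay between 1.07 and 3.61 CPM in control and between 22.4 and 35.4 CPM in senescent FAPs, while the groups overlapped for Il6, Lif, Il11, Il6st, Osmr and Il1r1.

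Among the IL-6 family ligands, Il6 encodes the cytokine for which the family is named, secreted by fibroblasts after injury and by many senescent cells. Il6 lies on chromosome 5 (mm10, chr5:30013114-30019981, plus strand). Because its promoter is a textbook example of combined AP-1, CRE, C/EBP and NF-κB control, the 250 bases before its RefSeq start (GRCm38.p6, chr5:30012864-30013113, plus strand) are shown, with motif matches in capitals.
Il6: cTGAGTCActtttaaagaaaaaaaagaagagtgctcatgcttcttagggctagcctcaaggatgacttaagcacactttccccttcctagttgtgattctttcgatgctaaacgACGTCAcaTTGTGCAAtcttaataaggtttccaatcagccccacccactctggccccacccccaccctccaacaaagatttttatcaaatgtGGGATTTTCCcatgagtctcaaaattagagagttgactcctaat
Counted from the start site, an AP-1 match (TGANTCA) began at base -249, a short CRE (TGACGT) at -136, a C/EBP match (TTNNGCAA) at -128 and an NF-κB match at -44. Both strands were searched, and a short CRE is also part of a full CRE (TGACGTCA), which was not matched here. Of 32851 RefSeq promoter windows of the same length, 6.75% held the AP-1 motif, 6.47% the short CRE, 9.56% the C/EBP motif and 7.25% the NF-κB motif.

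Il6 measured 23.5, 27.0 and 31.8 CPM in control replicates 1, 2 and 3 and 14.2, 24.7 and 24.2 CPM in senescent replicates 1, 2 and 3. Senescent replicate 1 was the lowest library, and the other senescent cultures lay within the control range. The log2 fold change (senescent minus control, of CPM + 0.5) was -0.41 ± 0.22 (SE), with a 95% interval from -0.91 to 0.10 and a limma adjusted p of 0.163. With the replicate number as a block, the adjusted p was 0.0313, and Il6 was lower in senescent FAPs in each of the 3 same-numbered pairs, by -0.71, -0.13 and -0.39 on the log2 scale. By the root mean square distance of centred log2 values over the 6 libraries, the genes most like Il6 were Gm14295 (0.056), Hsd17b7 (0.102), Il1rl2 (0.118), Ucp2 (0.127) and Fzd6 (0.131).

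Lif encodes leukemia inhibitory factor, which signals through LIFR and gp130, and lies at chr11:4257557-4272514 (plus strand). It measured 139, 214 and 105 CPM in control and 121, 111 and 97.3 CPM in senescent FAPs. Control replicate 2 was above the other 5 libraries, which lay between 97.3 and 139 CPM. The log2 fold change was -0.42 ± 0.23 (limma adjusted p = 0.177, 95% interval -0.96 to 0.12), and without control replicate 3 it was -0.66 with an adjusted p of 0.0354. Il11 encodes a profibrotic cytokine of the family and lies at chr7:4772373-4782859 (minus strand). It measured 49.3, 74.1 and 35.04 CPM in control and 41.7, 45.5 and 44.2 CPM in senescent FAPs, with all senescent cultures inside the control range. Its log2 fold change was -0.20 ± 0.23 (limma adjusted p = 0.507, 95% interval -0.75 to 0.34), and it turned to 0.07 without control replicate 2 and to 0.01 with division by library totals alone.

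The receptors of the family gave no call either. Il6st, on chromosome 13 (chr13:112464070-112510086, plus strand), encodes gp130. It measured 767, 433 and 843 CPM in control and 531, 439 and 475 CPM in senescent FAPs. The senescent cultures lay between control replicate 2 and the other controls. The log2 fold change was -0.45 ± 0.24 (limma adjusted p = 0.158, 95% interval -0.99 to 0.10). The blocked fit gave an adjusted p of 0.0476, with differences of -0.53, 0.02 and -0.83 in the 3 same-numbered pairs, so pair 2 did not go down. Without control replicate 2, the log2 fold change was -0.74 with an adjusted p of 0.0011. Osmr (chr15:6813577-6874969, minus strand) encodes the oncostatin M receptor chain that pairs with gp130. It measured 212, 148 and 214 CPM in control and 193, 200 and 220 CPM in senescent FAPs, and control replicate 2 was again the lowest. The log2 fold change was 0.11 ± 0.15 (limma adjusted p = 0.552, 95% interval -0.22 to 0.45), and it turned to -0.06 without control replicate 2. In these 5 genes of the IL-6 family, limma therefore called 0, with 0 at an unadjusted p under 0.05 and 0 by edgeR or DESeq2 on the recovered reads.

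Among the other genes of the IL-6 family, 2 chains that bind a ligand rose. Of 4 other ligands tested, 0 passed (2 had an unadjusted p under 0.05, and edgeR and DESeq2 called 0), and of 5 other receptors 2 were higher. Over all genes tested, 21.8% were higher and 24.3% lower. Il6ra, the chain that binds IL-6 itself, rose from 3.59, 5.27 and 5.60 CPM to 10.01, 7.50 and 8.93 CPM (log2 fold change 0.82 ± 0.19, limma adjusted p = 0.0106). Il11ra1, the IL-11 binding chain, rose from 37.1, 37.5 and 41.1 to 50.3, 56.6 and 51.8 CPM (0.45 ± 0.08, adjusted p = 0.0040), and the gene overlaps Galt on the same strand and 5 coding genes on the other. In both genes every senescent culture was above every control culture, while the groups did not overlap, in either direction, in 57.4% of all genes tested. Lifr, the LIF receptor chain, measured 15.9 ± 0.41 CPM in control and 15.1 ± 1.73 CPM in senescent FAPs (SD, n = 3, log2 fold change -0.08 ± 0.11, adjusted p = 0.593). The direction of Lifr turned to 0.13 with division by library totals alone and to 0.0042 without senescent replicate 1.

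Clcf1, a B-cell stimulating ligand of the family, had a log2 fold change of 0.19 ± 0.12 (limma adjusted p = 0.221), and 0.30 with an adjusted p of 0.0234 without control replicate 2, and 0.40 with 0.0310 with division by library totals alone. For the low-level ligands Ctf1 (cardiotrophin 1) and Cntf (ciliary neurotrophic factor), both under 3 CPM, the values were 0.42 ± 0.16 (adjusted p = 0.0666, 0.0192 with division by library totals alone) and 0.38 ± 0.33 (adjusted p = 0.371, and 0.74 with 0.0321 without control replicate 2). Cntf overlaps Zfp91 on the same strand. Cntfr had 0.30 ± 0.25 (adjusted p = 0.358) and Il27ra, a receptor for IL-27, 0.40 ± 0.15 (adjusted p = 0.0627 by limma, 0.0409 by DESeq2, 0.0425 without senescent replicate 1 and 0.0171 with division by library totals alone). Osm, Ctf2, Il27, Ebi3, Il31, Il11ra2 and Il31ra were not analysed here.

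**Figure D2:**
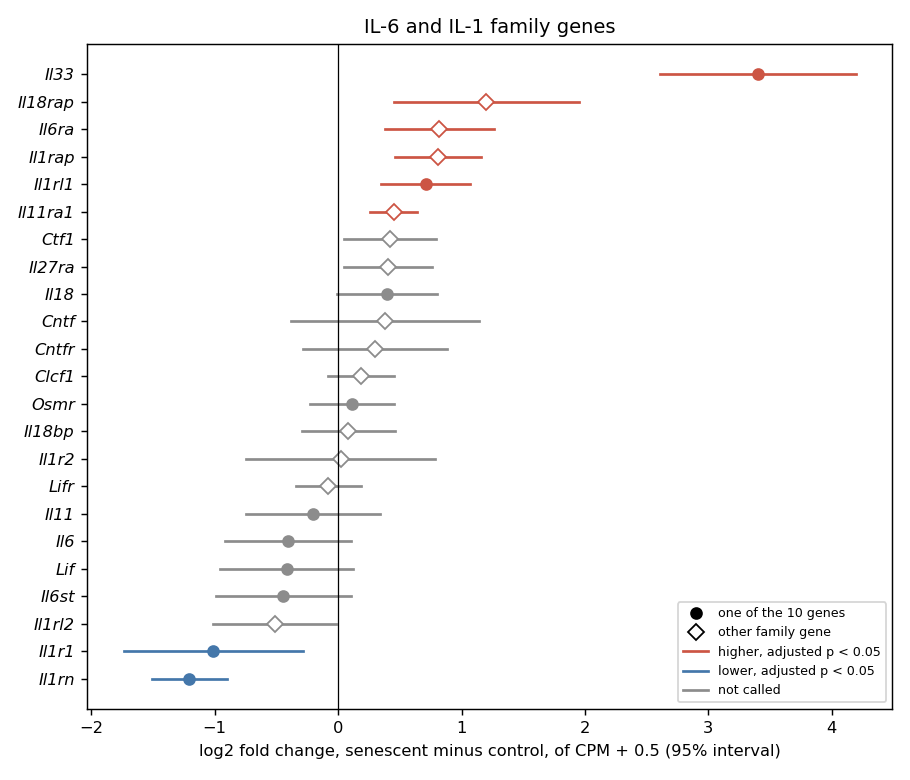
Log2 fold change, senescent minus control, of CPM + 0.5 on the horizontal axis for the family genes tested and named in the text, with 95% intervals from limma. Filled circles are the 10 genes, open diamonds other family genes, red and blue mark adjusted p under 0.05. Il33 stands far to the right at 3.40, and the intervals of Il6, Lif and Il11 include 0.

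In the IL-1 family, Il33 encodes an alarmin kept in the nucleus and released on cell damage, which binds ST2 on regulatory T cells, mast cells and other cells and is made by FAPs in muscle. Il33 (chr19:29925114-29960718, plus strand) has 2 RefSeq starts, and because it was the member that moved the most, the 250 bases before each are shown (GRCm38.p6, chr19:29924863-29925112 and chr19:29945540-29945789), with motif matches in capitals.
Il33 start 1: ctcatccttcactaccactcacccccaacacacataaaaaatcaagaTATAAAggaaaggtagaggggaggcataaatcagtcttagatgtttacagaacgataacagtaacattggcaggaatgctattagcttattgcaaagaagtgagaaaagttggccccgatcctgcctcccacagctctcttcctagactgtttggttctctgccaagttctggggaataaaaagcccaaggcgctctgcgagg
Il33 start 2: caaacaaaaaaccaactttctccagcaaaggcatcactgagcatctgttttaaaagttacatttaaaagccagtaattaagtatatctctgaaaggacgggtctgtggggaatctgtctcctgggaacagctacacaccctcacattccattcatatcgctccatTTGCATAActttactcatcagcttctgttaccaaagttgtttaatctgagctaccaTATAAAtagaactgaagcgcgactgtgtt
The first window held a TATA match (TATAAA) that began at -203, and the second a C/EBP match at -85 and a TATA match at -29, while 12.4% of all windows held TATAAA. AP-1, STAT (TTCNNNGAA), CRE and NF-κB motifs were not matched in either window, which says only that these letters are not in these 250 bases. Which start was used cannot be read from gene-level values.

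Il33 measured 1.07, 2.45 and 3.61 CPM in control and 22.4, 26.8 and 35.4 CPM in senescent FAPs. The lowest senescent culture was above the highest control culture, and the log2 fold change was 3.40 ± 0.34 with a limma adjusted p of 0.0004. Without any 1 library it stayed between 3.02 and 3.71, with control replicates 1 and 3 setting these bounds, and the adjusted p over all alternatives was at most 0.0040. In control FAPs Il33 was the least abundant of the 10 genes per length, at 0.824 CPM per kb of exon (0.371 to 1.25 over libraries), where an exon model unites the exons of all annotated transcripts. In senescent FAPs it was 9.78 CPM per kb (7.77 to 12.3), which overlapped the ranges of Il1r1, Il1rn and Il6.

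Il18 encodes a cytokine that caspase-1 activates, and the gene (chr9:50554827-50581840, plus strand) overlaps Bco2 and Tex12 on the other strand. It measured 1.81, 1.27 and 1.88 CPM in control and 2.48, 2.02 and 2.45 CPM in senescent FAPs. The groups did not overlap, but the log2 fold change of 0.40 ± 0.17 gave a limma adjusted p of 0.0982 (95% interval -0.01 to 0.80). Il18bp, which encodes the secreted inhibitor of IL-18 and overlaps Numa1 on the other strand, had 0.08 ± 0.16 (adjusted p = 0.706) and turned to -0.02 without control replicate 2. Il1f10, another ligand, was below the filter, at 0.276 ± 0.071 and 0.237 ± 0.076 CPM. Il1a, Il1b and the IL-36 genes were not analysed here.

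Il1rn encodes the IL-1 receptor antagonist, which occupies the receptor without signaling and exists as secreted and intracellular forms that gene-level values cannot separate. It lies at chr2:24336853-24351494 (plus strand). Since it fell the most of the 10 genes in the fit on all 6 libraries (without control replicate 2, Il1r1 fell more), the window before the first of its 3 RefSeq starts is shown (GRCm38.p6, chr2:24336610-24336859), where capitals mark the only match, an AP-1 match that began at -141.
Il1rn start 1: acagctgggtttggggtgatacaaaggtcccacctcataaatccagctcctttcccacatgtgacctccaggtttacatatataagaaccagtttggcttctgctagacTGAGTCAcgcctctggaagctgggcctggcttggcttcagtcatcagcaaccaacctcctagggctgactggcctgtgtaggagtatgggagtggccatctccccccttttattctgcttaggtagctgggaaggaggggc
AP-1 was also matched before Lif at -228 and before the second start of Il11 at -98. Before Il1r1, a C/EBP match began at -133 (start 1) and an NF-κB match at -232 (start 2). Whether any of these matches has a part in the levels was not tested. Il1rn measured 111, 132 and 125 CPM in control and 64.1, 46.0 and 49.7 CPM in senescent FAPs. Every senescent culture was below every control culture, and the log2 fold change was -1.21 ± 0.13 (limma adjusted p = 0.0005). Over the alternatives it ranged from -1.35 to -0.996 and remained called in all 16.

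Of the family's receptors, 6 lie in a cluster on chromosome 1, in the order Il1r2, Il1r1, Il1rl2, Il1rl1, Il18r1 and Il18rap, all on the plus strand over 478 kb and with 0 other coding genes between them. Il1r1 (chr1:40225080-40317257) encodes the signaling receptor for IL-1α and IL-1β and overlaps Gm38070 on the same strand. It measured 186, 93.1 and 179 CPM in control and 106, 60.4 and 58.6 CPM in senescent FAPs. The groups overlapped, since senescent replicate 1 was above control replicate 2. The log2 fold change was -1.01 ± 0.31 (limma adjusted p = 0.0315), and -1.33 with an adjusted p of 0.0026 without control replicate 2. The call was lost when another library was left out, as the adjusted p was 0.0860 without control replicate 1, 0.0969 without control replicate 3, 0.108 without senescent replicate 2 and 0.113 without senescent replicate 3, and 0.0635 with division by library totals alone.

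Il1rl1 (chr1:40429570-40465415) encodes ST2, the IL-33 receptor, as a membrane form and a soluble decoy made from the same gene, which gene-level values cannot separate. As the receptor of the ligand that rose the most, its 2 RefSeq start windows are shown (GRCm38.p6, chr1:40429320-40429569 and chr1:40439379-40439628, plus strand), with capitals for the C/EBP match at -34 before the first and the short CRE at -34 before the second.
Il1rl1 start 1: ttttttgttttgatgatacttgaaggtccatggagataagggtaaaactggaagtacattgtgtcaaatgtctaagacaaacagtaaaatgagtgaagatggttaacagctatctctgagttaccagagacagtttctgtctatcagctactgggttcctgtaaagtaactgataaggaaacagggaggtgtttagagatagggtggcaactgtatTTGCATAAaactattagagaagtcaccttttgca
Il1rl1 start 2: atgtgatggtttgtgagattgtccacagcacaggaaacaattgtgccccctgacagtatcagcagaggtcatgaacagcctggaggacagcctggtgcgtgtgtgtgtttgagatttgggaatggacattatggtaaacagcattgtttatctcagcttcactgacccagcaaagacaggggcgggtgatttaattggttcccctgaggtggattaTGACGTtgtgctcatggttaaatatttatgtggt
Il1rl1 measured 179, 242 and 187 CPM in control and 396, 282 and 320 CPM in senescent FAPs. All senescent cultures were above all control cultures, and the nearest pair was replicate 2 of each group. The log2 fold change was 0.71 ± 0.16 (limma adjusted p = 0.0083) and it remained called under all 16 alternatives, with values from 0.58 to 0.92.

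Read per length within each library, Il1rl1 was 0.892, 2.40 and 0.966 times Il1r1 in control replicates 1, 2 and 3 and 3.46, 4.30 and 5.04 times Il1r1 in senescent replicates 1, 2 and 3. The ratio was therefore higher in every senescent culture, with control replicate 2 the highest of the controls. As a level per kb of exon, Il1rl1 came after Il6st and Lif in control FAPs (29.4 CPM per kb, 26.0 to 35.1), where its range overlapped those of both neighbours, Lif and Il11. In senescent FAPs it was the first of the 10 genes by mean, at 48.2 CPM per kb (40.8 to 57.5), and overlapped Il6st at 43.4 CPM per kb (39.6 to 47.8).

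By mean level per kb, control FAPs had the order Il6st, Lif, Il1rl1, Il11, Il1r1, Il1rn, Osmr, Il6, Il18 and Il33, and only the steps from Il1rn to Osmr and from Il6 to Il18 separated neighbours whose ranges did not overlap. Senescent FAPs had the order Il1rl1, Il6st, Lif, Il11, Osmr, Il1r1, Il33, Il1rn, Il6 and Il18, and there the ranges did not overlap from Il6st to Lif, from Lif to Il11, from Il11 to Osmr and from Il6 to Il18. Il18 was at 1.61 CPM per kb in control and 2.25 CPM per kb in senescent FAPs. Il6 was at 11.3 and 8.67 CPM per kb. The chain that binds IL-6, Il6ra, was far below gp130 at 0.558 and 1.02 CPM per kb, so that Il6st exceeded Il6ra 64.0- to 166-fold in control and 41.3- to 45.7-fold in senescent libraries.

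The remaining genes of the receptor cluster and the shared chain were measured beside these. Il1rap encodes the accessory chain that both IL-1 and IL-33 receptors need. It rose from 15.8, 20.1 and 21.1 CPM to 28.3, 34.3 and 38.5 CPM (log2 fold change 0.81 ± 0.15, limma adjusted p = 0.0042). Il18rap, the accessory chain of the IL-18 receptor, rose from 2.12, 5.50 and 2.17 to 6.33, 8.85 and 7.49 CPM (1.20 ± 0.32, adjusted p = 0.0189). That call was lost without control replicate 1 (0.0526), control replicate 3 (0.0626), senescent replicate 2 (0.0725) or senescent replicate 3 (0.0620). Il1rl2, the IL-36 receptor, had -0.51 ± 0.21 (adjusted p = 0.0855, 0.0044 with the replicate block and 0.0466 without control replicate 1).

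Il1r2, a decoy receptor for IL-1, was near 0.5 CPM in both groups (0.544 ± 0.388 and 0.525 ± 0.256 CPM, SD, n = 3, log2 fold change 0.02 ± 0.33, adjusted p = 0.963). Il18r1, the ligand-binding chain for IL-18, was below the filter, with 0.0446, 0.0190 and 0.0180 CPM in control, which is 1 or 2 reads per library, and 0.477, 0.268 and 0.338 CPM in senescent FAPs. In an edgeR fit over all listed genes, added after the values were seen, Il18r1 had an adjusted p of 0.0022. In the 14 other family genes tested, 4 were higher and 0 lower, beside 21.8% higher and 24.3% lower over all genes tested, with 2 lower at an unadjusted p under 0.05 and 0 by edgeR or DESeq2. Il1rapl1, Il1rapl2 and Sigirr were not analysed here.

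**Figure D3:**
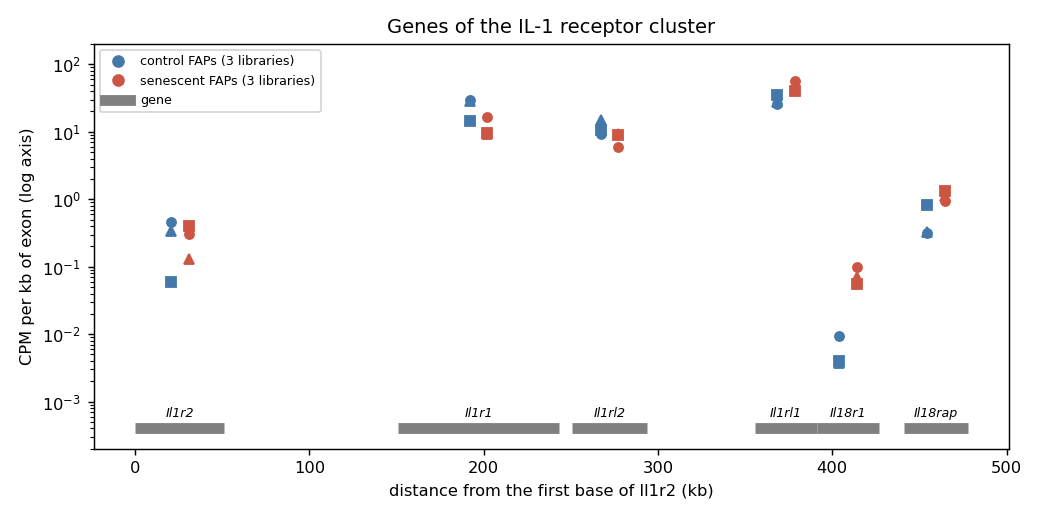
CPM per kb of exon (log axis) of the 6 genes of the IL-1 receptor cluster against distance in kb from the first base of Il1r2. Blue is control and red senescent FAPs, the circle, square and triangle are replicates 1, 2 and 3, and gray bars are the genes to scale. Il1r1 was lower and Il1rl1 and Il18rap, further along the cluster, were higher in senescent FAPs, while Il1r2 and Il1rl2 on either side of Il1r1 were not called.

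Signaling genes and targets of these receptors were also measured as mRNA, and whether signaling through the receptors changed was not tested. Of 17 gp130 signaling genes tested, 2 were higher and 3 lower, beside 21.8% and 24.3% over all genes tested, with a median log2 fold change of -0.01 against -0.03 over all genes tested. The adaptor Gab1 rose from 15.4 ± 0.80 to 23.7 ± 1.67 CPM (SD, n = 3, log2 fold change 0.60 ± 0.10, limma adjusted p = 0.0024). The feedback inhibitor Socs3 fell from 74.1, 44.3 and 66.4 to 26.5, 29.1 and 26.8 CPM (-1.12 ± 0.18, adjusted p = 0.0022). Socs2, a second inhibitor, and the phosphatase Ptpn2 fell too (-0.67 ± 0.11, adjusted p = 0.0022, and -0.55 ± 0.09, adjusted p = 0.0029). Jak1, a kinase bound to gp130, had 0.26 ± 0.10 (adjusted p = 0.0664, 0.0371 with the replicate block, and under 0.05 by DESeq2, at 0.0202, and without control replicate 3 or senescent replicate 1, at 0.0496 and 0.0484, and 0.0074 with division by library totals alone). The count of lower genes in this list was 5 with the replicate block and 6 without control replicate 2, and 6 were higher with division by library totals alone.

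STAT3 target genes went both ways, with 5 higher, 5 lower and 5 not called of 15 tested, beside 21.8% higher and 24.3% lower over all genes tested. The list's median was -0.23, against -0.03 over all genes tested. Saa3 passed the filter through its senescent libraries alone, and without it 4 of 14 were higher and the median was -0.31. The higher genes were Serpina3n, Saa3, Lbp, Timp1 and Il4ra, and the lower ones Socs3, Myc, Fos, Cebpd and Junb. Bcl3, Cebpb, Pim1, Mcl1 and Hp were not called. The protease inhibitor Serpina3n rose from 2.86 ± 1.17 to 50.3 ± 8.48 CPM (log2 fold change 3.96 ± 0.24, limma adjusted p = 0.0001) and the lipopolysaccharide-binding protein Lbp from 22.5 ± 5.97 to 65.0 ± 10.4 CPM (1.53 ± 0.19, adjusted p = 0.0009). The serum amyloid gene Saa3 was at 0.0670, 0 and 0 CPM in control and at 1.69, 1.77 and 3.31 CPM in senescent FAPs (adjusted p = 0.0004). Myc fell from 61.0 ± 8.35 to 25.8 ± 5.11 CPM (-1.24 ± 0.16, adjusted p = 0.0009) and Fos from 221 ± 27.8 to 150 ± 16.6 CPM (-0.56 ± 0.12, adjusted p = 0.0072). The count of lower genes was 8 without control replicate 2, and 3 without control replicate 3, senescent replicate 2 or senescent replicate 3.

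Of 21 genes of IL-1 receptor signal transduction tested, 5 were higher and 0 lower (1 at an unadjusted p under 0.05, 0 by edgeR or DESeq2, and 1 with the replicate block or without senescent replicate 3), with a median of 0.04. The share higher is near the 21.8% of all genes tested, of which 24.3% were lower. The count of higher genes was 2, 1 and 3 without senescent replicate 1, 2 and 3. Ikbkg, the regulatory subunit of the IκB kinase, rose by 0.89 ± 0.08 (limma adjusted p = 0.0003). The inhibitor Tnfaip3 rose by 0.47 ± 0.12 (adjusted p = 0.0163), a call lost without senescent replicate 1 (0.0517) or 2 (0.0596). The kinase Irak1 rose by 0.33 ± 0.09 (adjusted p = 0.0213), a call lost without control replicate 3 (0.0746), senescent replicate 1 (0.0625) or senescent replicate 2 (0.0695). Irak3, an inhibitory kinase, and Nfkbia, the NF-κB inhibitor, were the other genes called. The ubiquitin ligase Traf6 had -0.24 ± 0.09 (adjusted p = 0.0570, 0.0494 with the block and 0.0491 without senescent replicate 3). The adaptors Tab2 and Tollip had -0.13 ± 0.07 (adjusted p = 0.143) and -0.09 ± 0.07 (adjusted p = 0.304), and both turned positive with division by library totals alone, under which 10 genes of the list were higher.

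IL-1 target genes of fibroblasts were higher for 10 of 16 tested and lower for 0 (0 at an unadjusted p under 0.05, 0 by edgeR or DESeq2, and 1 without control replicate 2), with a median of 0.74 against -0.03 over all genes. Cxcl2, Mmp13 and Saa3 needed their senescent libraries to pass the filter, although Mmp13 also reached 0.5 CPM in control replicate 2. Without these genes 7 of 13 were higher and the median was 0.47, beside 21.8% higher and 24.3% lower over all genes tested. The genes called were Icam1, Vcam1, Mmp13, Mmp3, Ccl2, Ccl7, Cxcl2, Saa3, Tnfaip3 and Nfkbia, of which Saa3, Tnfaip3 and Nfkbia also stand in other lists. This list was chosen with earlier results of these data known, and the study had already reported Ccl2 and Ccl7 as raised in these cells. Its counts and median are therefore not an independent result. The adhesion molecule Icam1 rose from 2.28, 2.21 and 5.01 to 52.5, 66.8 and 60.6 CPM (log2 fold change 4.12 ± 0.27, limma adjusted p = 0.0001), and Vcam1 from 34.1 ± 1.76 to 77.4 ± 5.73 CPM (1.17 ± 0.08, adjusted p = 0.0002). The collagenase Mmp13 was at 0.0670, 0.685 and 0.0898 CPM in control and at 4.84, 6.44 and 4.93 CPM in senescent FAPs (adjusted p = 0.0004). The neutrophil chemokine Cxcl1 did not pass, with -0.46 ± 0.29 (adjusted p = 0.221, and -0.76 with 0.0206 without control replicate 2). Nfkbiz and Sod2 had -0.13 ± 0.10 (adjusted p = 0.310) and -0.10 ± 0.11 (adjusted p = 0.494), and both turned positive with division by library totals alone.

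Among proteases that process or release these cytokines and receptors, 3 of 8 tested were higher and 1 lower (0 without control replicate 3 or senescent replicate 2, and 2 with the replicate block), with a median of 0.37. Of all genes tested, 21.8% were higher and 24.3% lower, with a median of -0.03. The inflammatory caspases rose, Casp4 from 3.09 ± 0.11 to 12.002 ± 1.73 CPM (log2 fold change 1.79 ± 0.14, limma adjusted p = 0.0002) and Casp1, which activates IL-18, from 0.833 ± 0.172 to 2.77 ± 1.03 CPM (1.25 ± 0.25, adjusted p = 0.0058). Gsdmd, which forms the membrane pore through which IL-1 family cytokines leave cells, rose from 18.4 ± 1.16 to 30.3 ± 1.72 CPM (0.71 ± 0.09, adjusted p = 0.0010). Adam17, a sheddase of the IL-6 receptor, fell by 0.29 ± 0.08 (adjusted p = 0.0215), a call lost without control replicate 1 (0.0588), control replicate 3 (0.0821) or senescent replicate 2 (0.0903) and with division by library totals alone (0.436). The related sheddase Adam10 had -0.30 ± 0.12 (adjusted p = 0.0797, 0.0149 with the block and 0.0457 without control replicate 1), and the calpain Capn2 -0.09 ± 0.08 (adjusted p = 0.392), which turned positive with division by library totals alone.

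**Figure D4:**
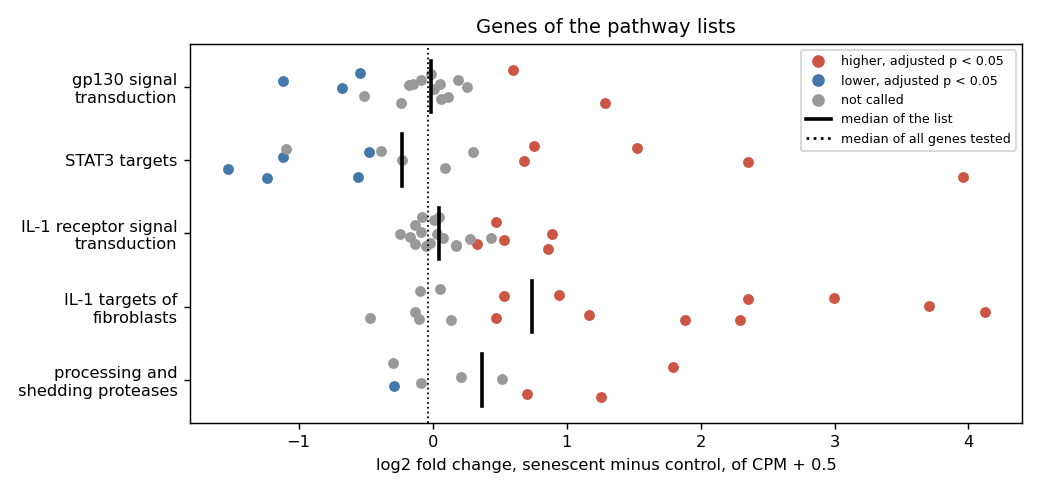
Log2 fold change, senescent minus control, of CPM + 0.5 for each gene tested in 5 pathway lists. Each point is a gene, spread vertically for legibility, red and blue mark adjusted p under 0.05, the bar is the list's median and the dotted line the median of all genes tested. IL-1 target genes had a median of 0.74, or 0.47 without the 3 genes that needed their senescent libraries to pass the filter, and gp130 signaling genes of -0.01.

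The control cultures varied together with replicate 2. Relative to the mean of the other 2 controls on the log2 scale, control replicate 2 was higher for Lif (0.82), Il11 (0.83), Il1rl1 (0.40) and Il1rn (0.16) and lower for Il6st (-0.89), Osmr (-0.52), Il18 (-0.40) and Il1r1 (-0.97), while Mki67 and Top2a were higher by 1.14 and 1.07. For Il6st, Osmr and Il1r1 the other 2 controls differed from each other by at most 0.14. They differed more for Il33 (1.39), Il11 (0.49), Il6 (0.43) and Lif (0.41). Whether the proliferation of control replicate 2 had a part in these levels was not tested. Without it, Il33 had a log2 fold change of 3.47, Il1rn of -1.15, Il1r1 of -1.33 and Il1rl1 of 0.84, and all 4 remained called by limma.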

How the data were processed

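RNA of 3 control and 3 senescent FAP cultures was sequenced after preparation with a stranded mRNA kit. The authors deposited 1 table holding a normalized signal, in CPM that edgeR had scaled between libraries, with replicates not pooled. The submitters' processing notes name mm10, edgeR 3.10 and R 3.6.0. The aligner, the counting tool, the strand setting and the low-count filter are not given in the sources used here. Whole reads were recovered for 100% of values in each library (tolerance 0.001 reads), and 1 line naming no gene (0.0041% to 0.0070% of reads) was left out. The design had assumed plain CPM, and the same test was kept. Reads per library ranged from 41412179 to 59912520, and 1 read was worth 0.0167 to 0.0225 CPM, which limits the precision of genes under 1 CPM.

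The 14776 of 16894 genes that reached 0.5 CPM in 3 or more libraries were tested with limma 3.58.1 (R 4.3.3, trend) on log2(CPM + 0.5), two-sided, with Benjamini-Hochberg adjustment. On this scale the fold change of a low gene is understated. edgeR 4.0.16 (quasi-likelihood) and DESeq2 1.42.0 on recovered reads, other pseudocounts, filters and scalings, a replicate block and leaving out each library were alternatives, and the fits were tested on simulated data. Deviations from group means correlated at 0.54, 0.31 and 0.21 between same-numbered cultures and at -0.36 to 0.15 between others, so the numbers were taken to pair the cultures. This comes from the same data that the blocked fit uses, since the labels give only the numbers. The main fit did not use the pairing.

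The genes and lists were chosen with earlier results of these data known. All 10 genes, every other listed family gene, the 3 higher and 3 lower genes of smallest p per other list, and the 5 genes nearest to Il6 were named. Genes listed by name only were chosen after their values were seen. Counts include 2 genes under this rule that are not reported here. Positions and exon lengths come from GENCODE M21 (GRCm38, the assembly of mm10) and promoter windows from RefSeq (GRCm38.p6), where 10 of 10 genes matched. The motifs were AP-1, STAT, CRE, short CRE, C/EBP, NF-κB and TATA.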

Additional observations from a re-analysis of the deposited data

How the results depend on the processing

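Of 906 values of single genes under the alternatives, 847 kept their direction and their side of the threshold, 18 lost the call, 26 gained it and 15 turned direction. The count of 2 members higher was 3 with division by library totals alone, where Il18 was added (log2 fold change 0.56, limma adjusted p = 0.0272), and 2 in all other fits. The count of 2 members lower was 1 with division by library totals alone and 4 with the replicate block, which added Il6 and Il6st, and ranged from 1 to 3 when 1 library was left out. Of the genes in the pathway lists, each counted once, 26 were higher and 8 lower. With division by library totals alone 40 were higher, and with the replicate block 14 were lower. Leaving out 1 library gave 21 to 30 higher and 5 to 15 lower, the 15 without control replicate 2 and the 5 without control replicate 3 or senescent replicate 2. The calls changed by the block stand beside each gene named, and it changed no other call of a named gene.

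Division by library totals moved the median log2 fold change of all genes tested from -0.03 to 0.17 and the share of calls that were higher from 47.2% to 72.1%, so values under it are shifted upward as a whole. Under it Il11 turned to 0.0087, Lifr to 0.128, Tab2 to 0.0773, Tollip to 0.122, Nfkbiz to 0.0819, Sod2 to 0.109 and Capn2 to 0.127. Leaving out 1 library gave -0.461 to 0.0736 for Il11, -0.0606 to 0.203 for Osmr, -0.0207 to 0.172 for Il18bp and -0.322 to 0.257 for Il1r2, with the lowest (for Il11 the highest) without control replicate 2, and -0.157 to 0.0042 for Lifr, the highest without senescent replicate 1. Il1r2 was also below 0 without senescent replicate 1 (-0.0299) or 2 (-0.140), and at -0.0223 with edgeR on all listed genes, an alternative added after the values were seen. The cause was not tested. Il1r2 had 6 to 45 reads per library, too few to show a modest difference.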
